A study of Mus musculus with 8 samples.

Results

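A set of 7 genes that mark Kupffer cells and other macrophages was followed in the livers of mice fed a Control or a Low AA diet. They were chosen by symbol from the deposited table, which lists 11784 genes, and all 7 were found, with Adgre1 under its older symbol Emr1. Livers came from male C57BL/6J mice that were 9 weeks old when the diets began. Of these mice, 4 received the Control diet (TD.140711) and 4 the Low AA diet (TD.140712). Both diets were amino acid defined. In the Low AA diet a smaller share of calories came from amino acids and a larger share from carbohydrate. All 8 mice had been on their diet for about 4 months and were fasted overnight for about 16 hours before sacrifice. Poly(A) RNA of whole liver was sequenced with stranded libraries, 1 library per mouse, and the value for each gene is a scaled and rounded read count.

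Kupffer cells are the resident macrophages of the liver. They sit in the sinusoids, where they take up bacteria, particles, immune complexes and aged red cells from the blood, and they depend on signals through the CSF1 receptor. Clec4f, Vsig4, Cd5l, Marco and Timd4 are strongly linked to the Kupffer cell in mouse liver, while Adgre1 (F4/80), Csf1r and Cd68 are shared with macrophages of other tissues.

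Column totals ran from 27876664 to 30799385 scaled reads. Control mouse F2212 stood apart from the other 7 mice, with 57733 scaled reads for the acute-phase gene Saa1, against 68 to 2818 in the others, and 36587 for the pancreatic elastase gene Cela1, against 130 to 288. F2212 also held the highest Control value of all 7 macrophage markers, so each difference between diets is given with and without it. In Low AA mouse H828, 6 of the 7 markers had their lowest Low AA value. In whole liver RNA, a change in the number of macrophages and a change in RNA per macrophage cannot be told apart.

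The markers were not shown to differ between the diets. All 7 had a log2 fold change above 0, from 0.08 for Cd68 to 0.61 for Marco, with a median of 0.24 beside 0.00234 over all genes. None of the 7 passed an adjusted p under 0.05 in limma, where 0.399% of all genes did so, and adjusted p ran from 0.418 to 0.881. At an unadjusted p under 0.05 there was 1 marker, Adgre1, beside 11.8% of all genes in either direction and 5.13% in the direction of higher on Low AA. In none of the 7 did the diets separate without overlap, as they did in 6.81% of all genes, 3.26% with Low AA higher. The 7 genes are not independent observations of the diet, because they varied together from mouse to mouse.

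Clec4f encodes a galactose-binding C-type lectin of Kupffer cells. It was measured at 3240, 2511, 3176 and 3626 scaled reads in Low AA mice H1126, H828, H817 and H1315, and at 2657, 3665, 2360 and 2410 in Control mice F129, F2212, F7111 and F2110. The highest value of the 8 mice was that of a Control mouse, F2212, and the diets overlapped. Means were 3138 ± 463 with Low AA and 2773 ± 609 with Control (mean ± SD of 4 mice). The log2 ratio of Low AA to Control was 0.19 (standard error, SE, 0.16, adjusted p = 0.721 in limma).

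Adgre1, whose product F4/80 is an adhesion-type receptor used as a general macrophage marker, was measured at 601, 439, 489 and 523 in the Low AA mice and at 436, 473, 365 and 403 in the Control mice, in the same order of mice. The only overlap was between H828 and F2212, and a Low AA mouse was above a Control mouse in 15 of 16 pairs. The log2 fold change was 0.29 (SE 0.13, 95% interval 0.0041 to 0.57, adjusted p = 0.418 in limma), and an exact permutation test of this gene alone, two-sided, gave p = 0.0571, where 4 mice against 4 cannot go below 0.0286. This was the smallest p of the 7 markers.

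Csf1r encodes the receptor tyrosine kinase for CSF1 and IL34 and was measured at 1887, 1250, 1627 and 1640 in the Low AA mice and at 1267, 1512, 1345 and 1374 in the Control mice. H828 had the lowest value of all 8 mice, and the other 3 Low AA mice were above every Control mouse. The log2 fold change was 0.21 (SE 0.13, adjusted p = 0.593 in limma). Control mice differed little from each other for this gene, with a coefficient of variation of 7.44% against 16.4% on the Low AA diet.

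Vsig4, a receptor for complement fragments C3b and iC3b by which Kupffer cells bind opsonized bacteria, was measured at 1013, 673, 829 and 1029 in the Low AA mice and at 652, 958, 647 and 733 in the Control mice. Only F2212 among the Control mice exceeded H817. The log2 fold change was 0.24 (SE 0.17, adjusted p = 0.648 in limma).

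Marco, a class A scavenger receptor for bacteria and particles, had the largest difference and the widest spread. It was measured at 313, 395, 276 and 355 in the Low AA mice and at 210, 439, 121 and 196 in the Control mice. F2212 had the highest value of the 8, while the other 3 Control mice lay below every Low AA mouse. Means were 335 ± 51.5 with Low AA and 241.5 ± 137 with Control (mean ± SD of 4 mice). The log2 ratio of Low AA to Control was 0.61 (SE 0.32, 95% interval -0.092 to 1.32, adjusted p = 0.503 in limma).

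Cd5l encodes a secreted scavenger receptor cysteine-rich protein made by macrophages. It was measured at 3712, 2396, 3331 and 3750 in the Low AA mice and at 2766, 3681, 2371 and 2342 in the Control mice, so that H828 lay with the low Control mice and F2212 with the high Low AA mice. The log2 fold change was 0.24 (SE 0.18, adjusted p = 0.675 in limma).

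Cd68, a glycoprotein of late endosomes and lysosomes, was measured at 203, 149, 193 and 203 in the Low AA mice and at 183, 195, 160 and 166 in the Control mice. H828 had the lowest value of the 8. The log2 fold change was 0.08 (SE 0.14, 95% interval -0.23 to 0.39, adjusted p = 0.881 in limma), the smallest difference of the 7. At this level counting error alone gives a coefficient of variation of about 7.42%, close to the 9.08% seen among Control mice but below the 13.8% among Low AA mice.

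**Figure D1:**
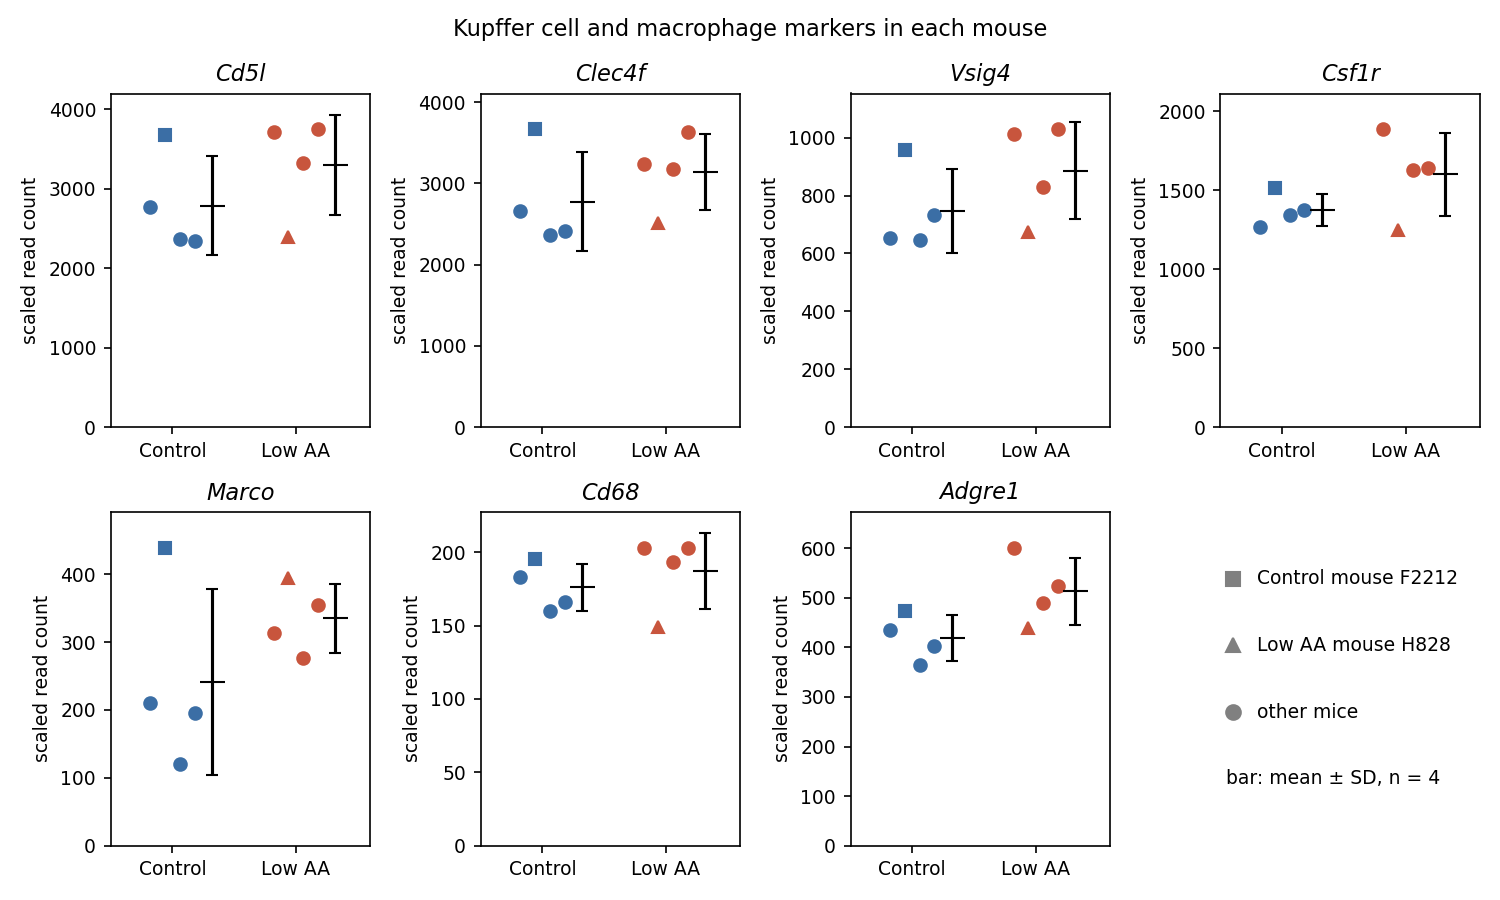
Scaled read count (linear axis from 0) of each of the 7 markers in each mouse, Control in blue and Low AA in red, with a black bar for the mean ± SD (n = 4). Squares mark Control mouse F2212, which has the highest Control value in all 7 panels, and triangles mark Low AA mouse H828, which has the lowest Low AA value in every panel but that of Marco.

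Single mice moved several of these differences by more than 1.5 times. Without F2212 the log2 fold change of Marco was 0.95 (SE 0.21, adjusted p = 0.0903 in limma), that of Clec4f 0.33, of Cd5l 0.39, of Vsig4 0.37, of Adgre1 0.35, of Csf1r 0.25 and of Cd68 0.13, none at an adjusted p under 0.05. Without H828 it was 0.39 for Cd5l, 0.37 for Vsig4, 0.32 for Csf1r, 0.29 for Clec4f, 0.19 for Cd68, 0.36 for Adgre1 and 0.53 for Marco, again with none called. At an unadjusted p under 0.05 in limma there were 5 markers without F2212, beside 12.4% of all genes, and 4 without H828, beside 10.1% of all genes. F2212 held the highest Control value of all 7 markers and H828 the lowest Low AA value of 6. Leaving out such a mouse raises those differences by construction, which does not apply to all genes, so these counts and shares are not alike. With any of the other 6 mice left out there were 0 markers at that level. Leaving out one of the other 6 mice moved the differences in either direction, for Marco to 0.70 without H817 and to 0.34 without F7111, for Adgre1 to 0.31 without F129 and to 0.21 without H1126, for Csf1r to 0.12 without H1126, for Clec4f to 0.12 without H1315 and for Cd68 to 0.10 without F129 and to 0.04 without F7111.

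**Figure D2:**
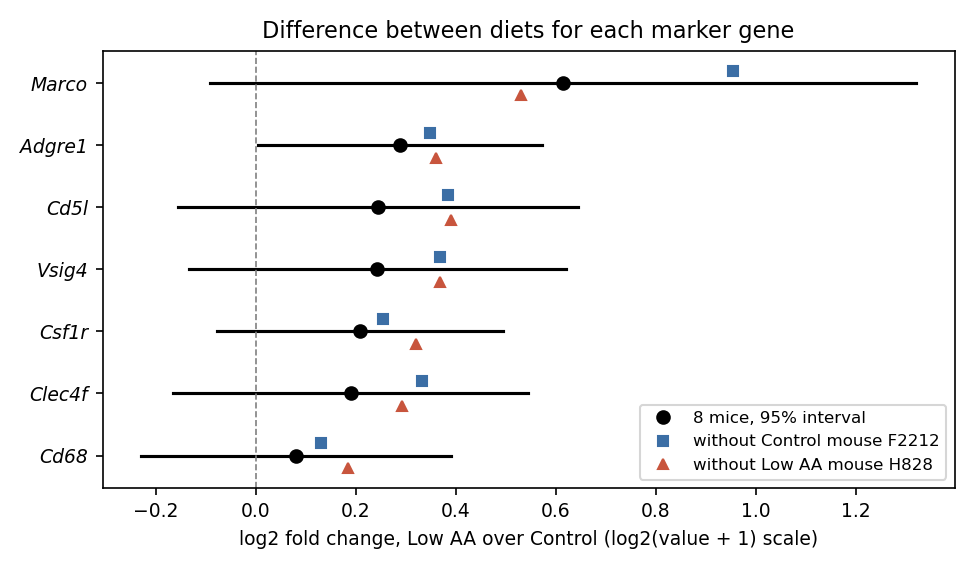
Log2 fold change of each marker, Low AA over Control, on the log2(value + 1) scale. Black points and lines give the estimate from 8 mice with its 95% interval, which lies above 0 only for Adgre1 and is widest for Marco, and coloured symbols give the estimate without Control mouse F2212 (squares) or without Low AA mouse H828 (triangles).

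Levels of different genes were compared per kilobase of the longest coding transcript in GENCODE M21. Cd5l had the highest level, at 1619 ± 309 scaled reads per kilobase with Low AA and 1370 ± 307 with Control (mean ± SD of 4 mice). Clec4f followed at 1270 ± 187 and 1122 ± 246, and although the ranges of these 2 genes over mice overlapped, Cd5l was above Clec4f in 8 of 8 mice. Vsig4 came next at 619 ± 118 and 522 ± 102, then Csf1r at 341 ± 55.9 and 292 ± 21.7, and the ranges of Clec4f, Vsig4 and Csf1r over the 8 mice did not overlap. Marco, Cd68 and Adgre1 were lowest, between 62.9 and 228 scaled reads per kilobase in every mouse, with ranges that overlapped, so their order is not settled.

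The genes lie on 7 different chromosomes. In GENCODE M21 on GRCm38, the mm10 build named in the submitters' processing notes, Cd5l is on chromosome 3 from 87357881 to 87371073, Clec4f on chromosome 6 from 83644542 to 83656187, Vsig4 on chromosome X from 96247203 to 96293438 and Marco on chromosome 1 from 120474538 to 120505024. Cd68 is on chromosome 11 from 69664213 to 69666153, Adgre1 on chromosome 17 from 57358691 to 57483527 and Csf1r on chromosome 18. No other annotated gene overlaps 6 of them. The span of Csf1r overlaps the protein-coding gene Hmgxb3 on the opposite strand, and whether reads were counted by strand is not given in the sources used here.

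Over the 8 mice the markers varied together. Pearson r of log2(value + 1) was between 0.35 and 0.97 in the 21 pairs, with a median of 0.83, and Spearman rho was between 0.19 and 0.90. Without the 2 mice farthest from the median of the first gene of a pair, r was between 0.21 and 0.98, with a median of 0.80. In 14 of the 21 pairs r passed an exact permutation test, two-sided, after Benjamini-Hochberg adjustment over the 21 pairs, and rho did so in 13. Cd5l and Clec4f were the closest pair, with r = 0.97 and rho = 0.90 (n = 8 mice, exact permutation tests, adjusted p = 0.0115 and 0.0271), and r = 0.98 without the 2 mice farthest from the median of Clec4f. Their values kept a nearly fixed ratio. Cd5l over Clec4f ran from 0.954 to 1.15, a coefficient of variation of 5.73%, while each gene alone varied by 21.1% and 18.2%.

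The covariation of the markers other than Marco remained within diets. With the mean of each diet removed, the median r over the 21 pairs was 0.82. It was 0.85 over the 15 pairs without Marco and 0.50 over the 6 with Marco, the lowest being 0.09 for Csf1r and Marco. In a separate calculation over the 7 mice other than F2212, with diet means kept, the median r over the 21 pairs was 0.85. Genes of the same library share its scaling, and with totals made equal the median r was 0.81. The log2 values of the markers were also centred and scaled over the 8 mice and averaged to a mean z score per mouse. Column totals had r = 0.29 to this score. The median value of a mouse over all genes, from 433 to 449, had r = -0.79 to it. A part of the covariation shared by whole libraries was not tested.

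Marco was less closely tied to the other 6 genes, although the difference between its pairs and the rest was not itself tested. Over the 15 pairs without Marco, r was between 0.74 and 0.97, and 14 passed the adjusted test. Over the 6 pairs with Marco, r was between 0.35 and 0.71 and none passed (exact permutation tests, two-sided, adjusted p from 0.0649 to 0.397). Its r with Cd68 was 0.38 and rose to 0.79 without the 2 mice farthest from the median of Cd68. With Cd5l it was 0.62 and fell to 0.21 without the 2 mice farthest from the median of Cd5l. The median over the 6 pairs with Marco was 0.62, and 0.60 when 2 mice were left out in this way. Relative to the mean of the other 6 genes, Marco was highest in H828, by 0.79 on the log2 scale, and in F2212, by 0.53, and lowest in Control mouse F7111, at -0.88. Thus H828, lowest of the Low AA mice for 6 markers, was the highest of them for Marco.

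**Figure D3:**
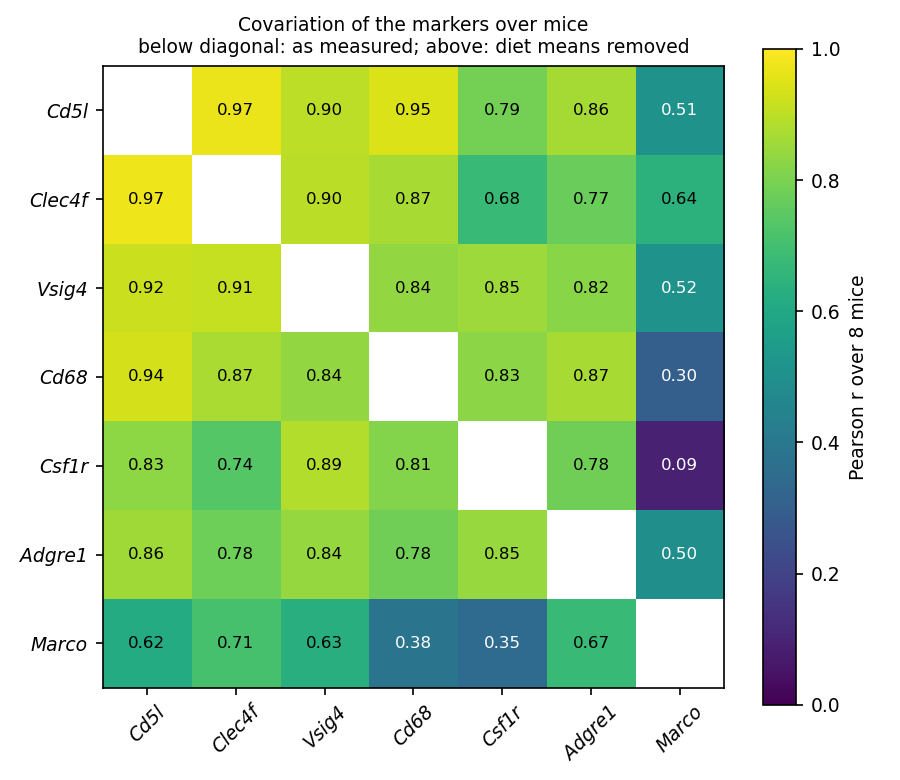
Pearson r over 8 mice for each pair of markers, on log2(value + 1), below the diagonal as measured and above it with each diet's mean removed. Pairs among Cd5l, Clec4f, Vsig4, Cd68, Csf1r and Adgre1 are between 0.74 and 0.97 as measured, and the row of Marco is between 0.35 and 0.71.

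Promoter sequences were read for the pair of genes that varied most closely together, Cd5l and Clec4f, and for Marco, which was less closely tied to them. They are RefSeq windows on GRCm38.p6 from 250 bases before to 50 bases after the start, 5′ to 3′ on the strand of the gene, with capitals at matches to GAGGAA, the core of the site for PU.1, a transcription factor of the macrophage lineage, or to its reverse complement TTCCTC. The windows are chr3:87357631-87357930 (plus strand) for Cd5l, chr6:83656067-83656366 (minus strand) for Clec4f and chr1:120504975-120505274 (minus strand) for Marco.
Cd5l: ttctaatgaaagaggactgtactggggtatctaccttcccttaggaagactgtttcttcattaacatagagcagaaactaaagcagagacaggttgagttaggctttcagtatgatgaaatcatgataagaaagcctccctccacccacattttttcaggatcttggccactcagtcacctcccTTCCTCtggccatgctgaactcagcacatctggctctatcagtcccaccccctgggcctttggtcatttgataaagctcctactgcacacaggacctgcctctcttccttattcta
Clec4f: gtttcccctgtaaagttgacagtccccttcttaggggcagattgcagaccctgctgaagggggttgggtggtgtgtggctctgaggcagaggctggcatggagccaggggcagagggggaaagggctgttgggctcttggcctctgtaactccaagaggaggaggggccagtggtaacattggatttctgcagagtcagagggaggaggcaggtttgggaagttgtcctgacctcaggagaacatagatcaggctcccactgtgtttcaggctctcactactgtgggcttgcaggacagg
Marco: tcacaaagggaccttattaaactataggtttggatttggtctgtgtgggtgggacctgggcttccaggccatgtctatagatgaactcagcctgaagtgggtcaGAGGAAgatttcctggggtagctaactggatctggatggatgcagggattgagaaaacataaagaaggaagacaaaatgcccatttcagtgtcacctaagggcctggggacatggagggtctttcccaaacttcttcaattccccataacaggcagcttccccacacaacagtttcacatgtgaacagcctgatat
The Clec4f window is set on the RefSeq start, which lies inside the GENCODE gene span. The letters occur once in the Cd5l window, 66 bases before the start, once in the Marco window, 146 bases before the start, and not in the Clec4f window. Of the 5 markers with a promoter in the table (these 3, Cd68 and Vsig4), 4 held a match, where 28.3% of 32851 promoters of the same length did. The letters TGCTGAC or GTCAGCA, searched on account of MAF factors, were in 0 of the 5 and in 4.67% of all promoters. A match of letters is a description and not evidence of binding.

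Ligands and transcription factors of the lineage did not differ detectably between diets. Csf1, the main ligand of Csf1r, was at 272, 151, 215 and 197 scaled reads in the Low AA mice and at 223, 224, 214 and 202 in the Control mice, with the lowest value in H828 and the Control mice close together (log2 fold change -0.08, SE 0.17, adjusted p = 0.909 in limma). Il34, the second ligand, was between 49 and 71 in all mice (log2 fold change -0.04, adjusted p = 0.962 in limma). The PU.1 gene, listed as Sfpi1, was at 75 to 107 on the Low AA diet and 79 to 133 on the Control diet (log2 fold change -0.02, adjusted p = 0.987 in limma), and Irf8, a partner of PU.1, at 113 to 167 and 115 to 193 (log2 fold change 0.07, adjusted p = 0.933 in limma). Both were highest of the 8 mice in F2212 and, on the Low AA diet, lowest in H828. Of the markers, only Clec4f and Marco were highest of the 8 in F2212, and all but Marco were lowest of the Low AA mice in H828. Nr1h3, which encodes LXR alpha, a nuclear receptor of Kupffer cell identity also made by hepatocytes, differed by a log2 ratio of 0.02 (adjusted p = 0.968 in limma). Of 19 listed genes of the CSF1 receptor axis and macrophage transcription factors, 0 were called, with a median log2 fold change of 0.00583. The smallest unadjusted p values in limma belonged to Bhlhe41 (log2 fold change -1.49, adjusted p = 0.241), Cebpa (-0.35, adjusted p = 0.521), Tfec (0.37, adjusted p = 0.593) and Maf (0.27, adjusted p = 0.593).

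Of 26 further Kupffer identity genes in the table, 1 was called, and it was lower. This was C6, a terminal complement component that hepatocytes also make, at 2672 to 3159 scaled reads on the Low AA diet and 4644 to 8801 on the Control diet (log2 fold change -1.08, SE 0.19, adjusted p = 0.0414 in limma). The call did not hold when any 1 of the 7 mice other than F2212 was left out, and held without F2212 (adjusted p = 0.0163). C6 went against the markers from mouse to mouse, with r = -0.67 to their mean z score, which is the log2 value of each marker centred and scaled over the 8 mice and then averaged. Among the other 25 genes, 21 had a log2 fold change above 0, and the smallest unadjusted p values in limma belonged to Fcna, a ficolin of the lectin complement pathway (0.34, adjusted p = 0.31), Slc40a1, the iron exporter ferroportin (0.27, adjusted p = 0.314), and Cfp, properdin (0.30, adjusted p = 0.448). Values of Slc40a1 did not overlap, at 3648 to 4088 on the Low AA diet and 2881 to 3507 on the Control diet. In this list 3 of the 26 genes did not overlap, C6 and Slc40a1 among them, beside 6.81% of all genes. The median log2 fold change of the 26 genes was 0.14.

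Of 28 genes shared by macrophages and other myeloid cells, 0 were called, 24 had a log2 fold change above 0, and the median was 0.14. The 3 chains of the complement component C1q, which macrophages make, had log2 fold changes of 0.20 for C1qa, 0.18 for C1qb and 0.18 for C1qc, with limma adjusted p of 0.75, 0.778 and 0.757, and each was highest of the 8 mice in F2212, at 1478, 1529 and 1254 scaled reads. Among the smallest unadjusted p values in limma were those of Ptprc, the leukocyte marker CD45 (0.33, adjusted p = 0.495), Cd14 (0.29, adjusted p = 0.664) and Cd53 (0.27, adjusted p = 0.668).

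Receptors for uptake had values on both sides of 0. Of 23 scavenger, phagocytic and Fc receptor genes and their ligands, 0 were called and 16 had a log2 fold change above 0. Fcgr3, a low-affinity receptor for IgG, differed by a log2 ratio of 0.43 (adjusted p = 0.266 in limma), the mannose receptor Mrc1 0.28 (adjusted p = 0.416) and Clec4n, a C-type lectin for fungal glycans, 0.57 (adjusted p = 0.428). Gas6, the bridging ligand of the receptors Mertk and Axl for apoptotic cells, differed by a log2 ratio of -0.63 (adjusted p = 0.191 in limma), with values of 752 to 903 on the Low AA diet and 864 to 1609 on the Control diet. The Control value of 864 was that of F7111, and without this mouse Gas6 was called lower (-0.83, adjusted p = 0.0146 in limma). F7111 was the only Control mouse within the Low AA range, so leaving it out separates the diets by construction, and this fit was named after its values were seen. Cd163, the haemoglobin scavenger receptor, did not follow the markers. It was at 848, 555, 743 and 720 in the Low AA mice and at 473, 385, 740 and 684 in the Control mice, lowest in F2212 where the 7 markers had their highest Control values.

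Of 20 genes of monocytes, neutrophils and recruited macrophages, 9 were listed in the table and 0 were called, with Cd9 (0.55, adjusted p = 0.385 in limma), S100a6 (-0.73, adjusted p = 0.448), Csf3r (0.28, adjusted p = 0.592) and Spp1 (-0.37, adjusted p = 0.63) having the smallest unadjusted p. Of 27 cytokine and activation genes, 18 were listed and 0 were called. The chemokine gene Ccl9 differed by a log2 ratio of -0.49 (adjusted p = 0.131 in limma) and did not overlap, at 422 to 505 on the Low AA diet and 524 to 706 on the Control diet. Without F2212, the Control mouse nearest the Low AA values, it was called lower (-0.58, adjusted p = 0.0472 in limma), a fit named after its values were seen. Tnfaip3, an inhibitor of NF-kappaB signalling, differed by a log2 ratio of 0.41 (adjusted p = 0.385 in limma), Nlrp3 0.45 (adjusted p = 0.487) and Il1rn 0.48 (adjusted p = 0.518). Tnfaip3 also did not overlap, at 80 to 124 on the Low AA diet and 70 to 79 on the Control diet. With Ccl9, 2 of the 18 genes were without overlap, beside 6.81% of all genes. Over the 6 macrophage lists, 115 genes without the 7 markers, 0 were called higher and 1 lower, where 0.102% of all genes were called higher and 0.297% lower. Their median log2 fold change was 0.12, and 80 of the 115 were above 0, beside 50.5% of all genes.

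Other macrophage genes held the pattern of the markers over mice more often than the table as a whole, though the 6 macrophage lists differed. To the mean z score of the 7 markers, 11 of 28 general macrophage and myeloid genes and 9 of 26 Kupffer identity genes had r above 0.8 over the 8 mice, 39.3% and 34.6% of these lists, beside 2.85% of all genes. The median r was 0.76 and 0.58 for these lists and -0.0045 over all genes. In the remaining macrophage lists the share was 21.1% for the CSF1 receptor axis and transcription factors and 17.4% for uptake receptors. It was 5.56% for cytokine and activation genes and 0 of 9 for monocyte, neutrophil and recruited macrophage genes. Of the 15 sinusoidal endothelial genes and the 15 stellate cell genes, 0 had r above 0.8, with medians of 0.17 and 0.01. Of 12 hepatocyte genes 2 had r above 0.8, which is 16.7%, with a median r of 0.28. Of 21 acute-phase genes 2 did so, 9.52%, with a median of 0.42. The 3 lymphocyte genes had a median r of 0.77, with 0 above 0.8. With the mean of each diet removed, the median r was 0.0572 over all genes. It was 0.80 for general macrophage and myeloid genes and 0.63 for Kupffer identity genes. Other lists reached such values in this form, with 0.86 for lymphocyte, 0.78 for acute-phase and 0.63 for blood genes. Hepatocyte, stellate cell and endothelial genes had 0.34, 0.15 and 0.0175. Likeness within diets was thus not particular to macrophage lists. These correlations describe the 8 mice and share their libraries. The 5 genes most like the markers were Pcna (r = 0.98), Wdr73 (0.98), Cd300a (0.97), Timd4 (0.97) and Rasa4 (0.96), and the least like were Sympk (-0.98), Ap2a1 (-0.97) and Snap23 (-0.97). Timd4, a phosphatidylserine receptor of resident macrophages, was at 215, 166, 208 and 207 in the Low AA mice and at 160, 213, 155 and 158 in the Control mice, so that F2212 was the only Control mouse above any Low AA mouse. With so many genes and 8 mice, values of r this large in both directions are the extremes of the table.

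**Figure D4:**
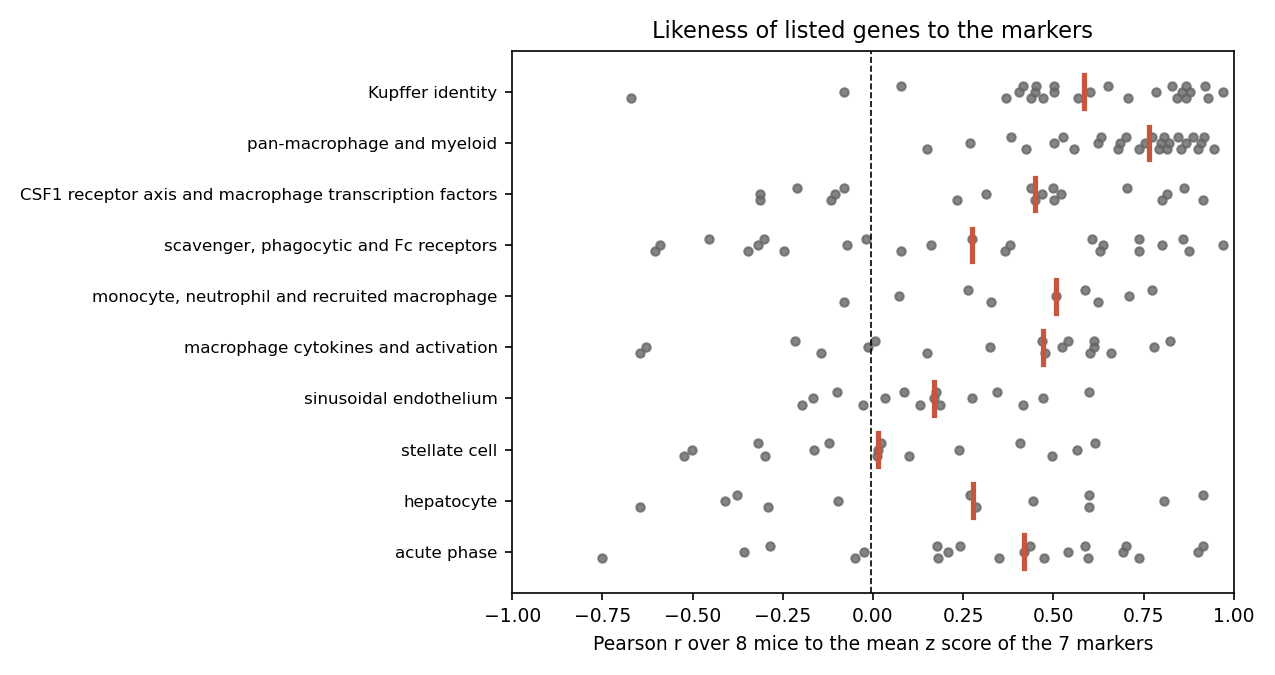
Pearson r over 8 mice between each listed gene (points) and the mean z score of the 7 markers, by gene list, with a red bar at the median of the list and a dashed line at the median of all genes of the table. The general macrophage genes have a median of 0.76 and the stellate cell genes one of 0.01. The lymphocyte, blood, cholangiocyte and pancreas lists are not drawn, and the 3 lymphocyte genes have a median of 0.77.

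Endothelial, stellate cell and hepatocyte markers were compared with the macrophage markers mouse by mouse. The mean log2 deviation from the 8-mouse mean ran from -0.0176 to 0.0757 on the Low AA diet and from -0.282 to 0.208 on the Control diet for the sinusoidal endothelium, with 0 of 15 genes called, and their summed values from 16015 to 17670 and from 13420 to 18958. For the 7 macrophage markers it ran from -0.116 to 0.276 and from -0.39 to 0.255, and their summed values from 7813 to 11126 and from 7369 to 10923. The stellate cell list had a lower mean deviation with the Low AA diet, from -0.172 to 0.0284 against 0.0486 to 0.115, without overlap, but their summed values overlapped, at 12933 to 16166 and 13760 to 16512, and 0 of 15 were called. Their smallest unadjusted p values belonged to Col1a1, Vim, Ntm and Col3a1, and no gene of this list was at 0 in any mouse. All 12 hepatocyte genes were in the table and 0 were called, Alb, Fgb, Cps1 and Pck1 having the smallest unadjusted p, and of the 5 cholangiocyte genes listed none was called, led by Sox9, Krt19, Spp1 and Epcam. The sinusoidal list was led in the same way by Ehd3, Egfl7, Stab2 and Kdr.

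F2212 was high for lymphocyte and blood genes as well as for the macrophage markers. The 3 lymphocyte genes in the table, Cd79a, Cd79b and Ccl5, summed to 264 in F2212, against 62 to 150 in the other mice, and the 6 blood genes to 16609. With 0 of 3 and 0 of 6 called, the blood genes with the smallest unadjusted p were Alas2, Hba-a1 and Hbb-b1. Of the 21 acute-phase genes 0 were called, and 4 did not overlap between diets, beside 6.81% of all genes. Saa1 (log2 fold change -3.49, adjusted p = 0.261 in limma), Orm1 (-2.06, adjusted p = 0.0908) and Saa4 (-1.29, adjusted p = 0.0915) lay lower on the Low AA diet without overlap. The fourth was Cp, with a lowest Low AA value of 34665 against a highest Control value of 34657, and it was named after its values were seen. Apcs had a log2 fold change of 1.03 (adjusted p = 0.192 in limma) and overlapped. Orm1 was called lower without H1315 (-2.44, adjusted p = 0.0415 in limma), Saa4 lower without F2110 (-1.53, adjusted p = 0.0425) and Apcs higher without F2212 (1.34, adjusted p = 0.0242). Each of these fits leaves out the mouse nearest the other diet for that gene and was named after the values were seen. The lowest mean deviation of the acute-phase genes was that of H828, at -1.03 on the log2 scale, against 1.25 in F2212. Thus the mice at the low and the high end of the acute-phase genes were also those in which the macrophage markers departed from the rest of their diet. This match was seen after the fact. Over all 8 mice the acute-phase deviation had r = 0.39 to the mean z score of the markers. Taken gene by gene, the 21 acute-phase genes had a median r of 0.42 to this score. With the mean of each diet removed, that median was 0.78. F7111, lowest of the 8 for the markers at -0.39, had an acute-phase deviation of 0.158. The part of lymphocyte, blood and acute-phase signal in the marker differences was not tested.

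**Figure D5:**
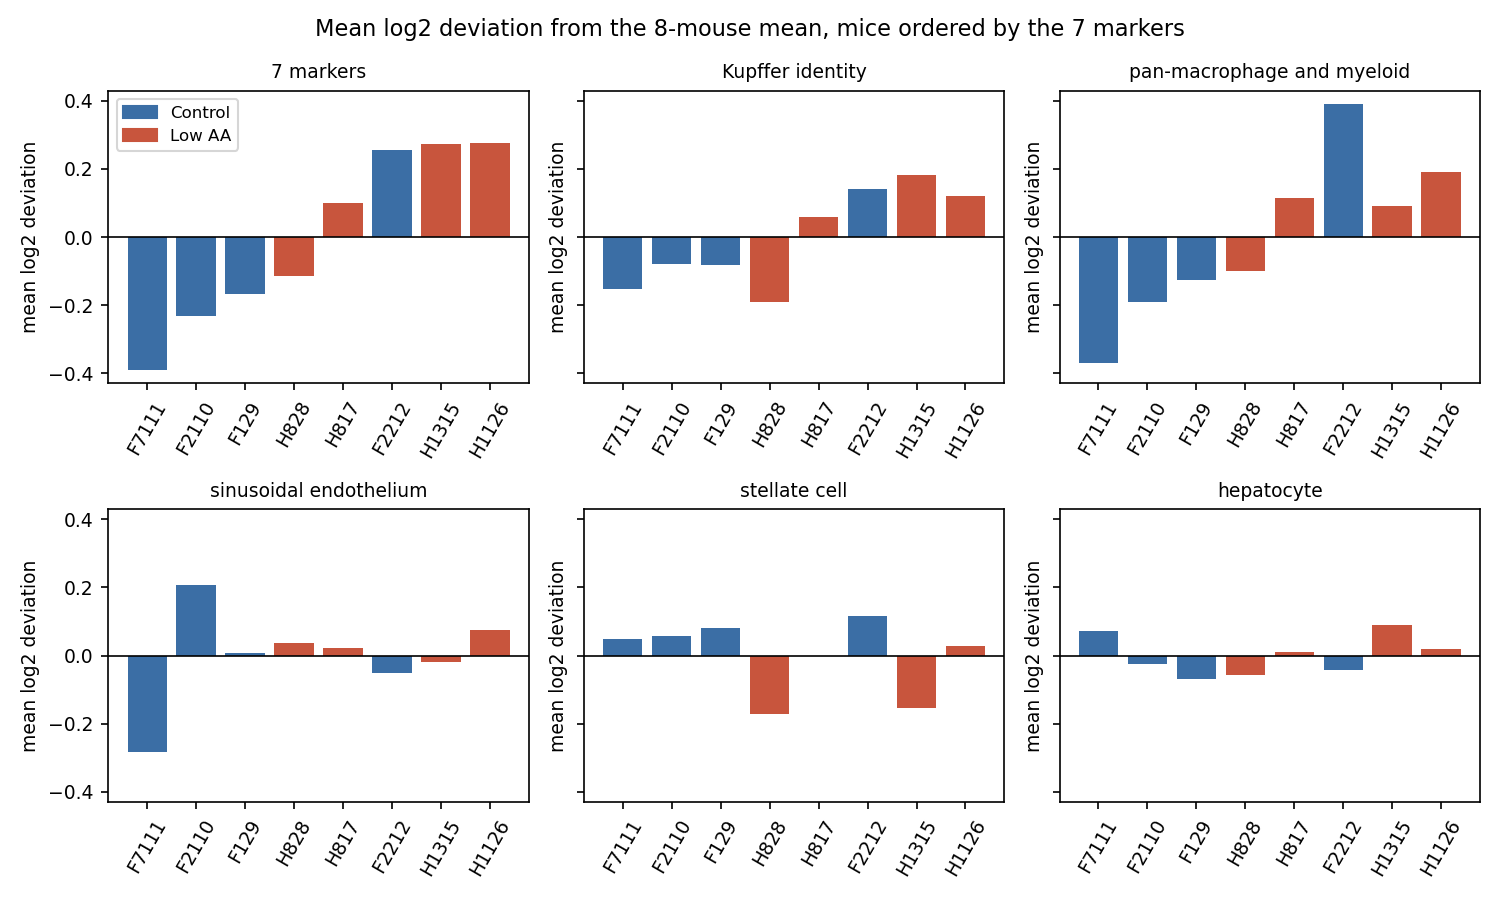
Mean log2 deviation from the 8-mouse mean for the 7 markers and 5 gene lists, one bar per mouse, Control in blue and Low AA in red, with mice in the order of the 7 markers in every panel. The 7 markers, Kupffer identity and general macrophage bars are negative in the same 4 mice and positive in the same 4, while the endothelial, stellate and hepatocyte bars are not.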

How the data were processed

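Liver poly(A) RNA of 4 Control and 4 Low AA mice was analysed, each mouse as 1 replicate. The submitters' processing notes name STAR 2.5.0a, RSEM 1.2.6 and edgeR 3.10.5 and the build mm10. The authors deposited 1 table with a signal per gene and mouse, a read count that had been scaled and rounded. The authors also deposited a signed fold change, a score, and an FDR, a q-value, from their own comparison of the diets, and neither was used. The scaling is not stated in the sources used here. It was read from evenly spaced gaps and doublings among low whole numbers, with fitted factors from 0.902 to 1.11, so no count model was applied. No gene has its third-highest value under 28, so low genes were already absent, and no filter was added. Fitted factors are estimates, and exact read depth is unknown.

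Values were compared as log2(value + 1) over all 11784 genes in limma 3.58.1 (R 4.3.3), using its mean-variance trend, with p adjusted by Benjamini-Hochberg. Fold changes on this scale understate changes of low genes. The fit was tested on simulated data. Single genes and correlations were tested by exact permutation over mice in Python with scipy 1.17.1. Older symbols were matched through RefSeq synonyms. Mice were group housed, cage membership was not known, and p-values measure the spread between these mice. The members and gene lists were chosen with earlier results of these data known. Named from each list were the called genes and, up to 4, those with the smallest unadjusted p, with ligands and factors of the lineage and the 5 genes most and 3 least like the members. Some genes are on more than 1 list. Some genes that this rule names are not reported here. C1q chains, Cd163 and the genes called when 1 mouse is left out were named after their values were seen. Alternatives were pseudocounts of 0.1 and 5, the 8000 genes of highest mean, equal column totals, no trend, robust moderation, vooma weights and each mouse left out. Figures were drawn with matplotlib 3.10.9.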

Additional observations from a re-analysis of the deposited data

Results flagged for a closer look

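Within groups of 4 mice, a mouse was looked for whose gap to the nearest other mouse, divided by the range of the group, exceeded Dixon's 95% critical value, in 70 groups. Such a gap was found in 6, where chance gives about 1 in 20. Low AA mouse H828 lay below the other Low AA mice for Cd68 (gap over range 0.837), for Irf8 (0.842) and for Timd4 (0.853). Control mouse F2212 lay above the other Control mice for Timd4 (0.900) and for Cela1, the 1 pancreas marker in the table (0.945), and below them for Snap23 (0.912), one of the genes least like the macrophage markers. Cd68, Irf8, Timd4 and Snap23 are not independent of each other, since Timd4 and Snap23 were named for their likeness to the markers.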

How the results depend on the processing

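The 7 markers kept a log2 fold change above 0 in all 104 values from the alternatives, and 0 of these had an adjusted p under 0.05, the lowest being 0.0903, for Marco without Control mouse F2212. Cd68 is not among the 8000 genes of highest mean, so that setting gives no value for it. Leaving out a mouse gave ranges of 0.21 to 0.36 for Adgre1, 0.12 to 0.33 for Clec4f, 0.04 to 0.19 for Cd68, 0.12 to 0.32 for Csf1r, 0.16 to 0.37 for Vsig4, 0.17 to 0.39 for Cd5l and 0.34 to 0.95 for Marco. The median r over the 21 pairs was 0.80 to 0.89 with a mouse left out, of which all but the fit without F2212 were chosen after seeing the data. The number of genes called over the whole table, 47, was 16 to 77 with a mouse left out, 19 among the 8000 genes of highest mean, where fewer genes were tested, and 30 without the mean-variance trend. The number called in the wider lists, 1, was 0 to 3 with a mouse left out (3 without F2212, namely Apcs, C6 and Ccl9, 2 without F7111, namely Gas6 and Hbb-b1, and 1 each without H1315 and F2110, which was not C6 but Orm1 and Saa4) and 0 both among those 8000 genes and without the trend. For C6 the adjusted p was then 0.0573 and 0.0715, and 0.0561 to 0.138 in the 7 fits without a mouse that lost it. The causes of these shifts other than the tested number of genes or mice were not tested. Equal column totals moved the median of all genes by 0.00351 on the log2 scale. No paired analysis was possible because no mouse code occurs in both diets. Counting error limits Cd68, Il34 and other genes of low value more than Cd5l and Clec4f.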
